A study of Danio rerio with 12 samples.

Results

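The comparison described here was the stage change in double morphants, whole zebrafish embryos in which Ta and Tbx16 were knocked down together: the 3 samples taken at 90% epiboly (9 hpf) against the 3 taken at shield (6 hpf). These were 6 of the 12 arrays of the study, chosen by the stage and morpholino oligonucleotide (MO) in their labels, and all 45220 array features entered the comparison. The double morphants had been injected with a mixture of 2 MOs, 0.25 pmol against *ta* and 0.5 pmol against *tbx16*. The other 6 arrays, 3 at 90% epiboly and 3 at shield, were of embryos injected with 0.75 pmol of standard control MO. All embryos were of the AB strain, and each sample was RNA pooled from about 200 whole embryos, so every level is an average over all cell types, and fewer cells of a type cannot be told apart from less RNA per cell. MOs reduce a protein without changing the gene, and the sources used here do not state which step each MO blocks. They also leave unsaid whether replicate samples were drawn from different clutches, and all p-values refer to the spread among replicates, which may be technical. Values are log2 signals as deposited, and a difference of 1 is a 2-fold difference in signal.

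Between shield and 90% epiboly the gastrula moves its future mesoderm and endoderm inside, extends its axis and spreads over the yolk, while transcripts left by the mother are cleared and genes of the germ layers and body regions come on. Ta and Tbx16 are T-box transcription factors (TFs) of the embryonic margin. Ta, the zebrafish Brachyury, is needed for the notochord and the tail, and Tbx16 is needed for trunk mesoderm cells to leave the margin and become somites. The outer enveloping layer and the yolk syncytial layer, the extraembryonic tissues of the fish embryo, are formed before gastrulation starts.

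The transcripts of both targeted genes were measured at both stages. *tbxta* (the current symbol of *ta*) was at 10.80, 11.27 and 11.08 in the 3 double morphant samples at 90% epiboly, against 11.48, 11.36 and 11.83 at shield, and the difference of -0.51 (standard error 0.20) did not pass the test (adjusted p = 0.121 from limma over all features). In control MO embryos it fell to 9.44, 9.15 and 9.14, against 9.99, 10.60 and 10.50 at shield (log2 difference -1.12, adjusted p = 0.00298), and the difference between the 2 stage changes did not pass (0.61, adjusted p = 1). *tbx16* fell in both, by 1.18 in double morphants (adjusted p = 0.00257) and by 1.01 in control MO embryos (adjusted p = 0.00599). RNA levels do not check the labels of a MO experiment. *krt4*, a keratin gene of the enveloping layer, was at 15.27, 14.81 and 14.84 in double morphants at 90% epiboly and 14.99, 14.79 and 15.05 at shield. The outer layer was thus in the samples, which by itself does not check the whole-embryo label.

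2 properties of the arrays touch the results below. First, the arrays of a group correlated across features at 0.966 to 0.990, but the shield samples numbered 1 lay nearest to the 90% epiboly levels: among 450 genes that rose and 499 that fell by at least 1 (log2) in control MO embryos, sample 1 was the nearest of the 3 double morphant shield samples in 280 (62.2%) and 360 (72.1%). The control MO shield sample numbered 1 did the same, in 287 of 469 genes that rose and 321 of 481 that fell in double morphants. Without both samples, 1220 genes rose and 1381 fell in double morphants. Second, the levels of some features looked exchanged with those of another. The screen was chosen after the data were seen and took pairs of features whose numbers differ by 84 or 85. In a single group, each group mean had to depart by at least 1.5 from the median of its other 3 groups, in opposite directions. Each also had to depart by more than the spread of those 3 and to lie within 1.5 of its partner's median. 38 pairs passed, against at most 7 pairs at any other distance up to 300. A pair that changes alike with stage in both MO groups can pass too. *foxb1b* had means of 9.30 and 8.12 at 90% epiboly and shield in double morphants, and 9.33 and 7.44 in control MO embryos. Limits of 1 and 2 in place of 1.5 were tried as well and gave 51 and 32 pairs at these 2 distances, against at most 25 and 4 at any other. Of these pairs, 21 exchanged in double morphants at 90% epiboly, 9 in double morphants at shield, 5 in control MO embryos at 90% epiboly and 3 in control MO embryos at shield. Features in such a pair are called features with an exchange partner below, and 18 of the genes that changed in double morphants had one.

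With 1 feature for each gene, 1049 of 13276 genes rose (7.9%) and 1093 fell (8.23%) in double morphants, against 956 that rose (7.2%) and 1099 that fell (8.28%) in control MO embryos. These shares are the background for every count of list genes below. The 2 comparisons share no sample, but same-numbered samples of the 2 MO groups deviated together within a stage (r of 0.30 to 0.35 at shield and 0.08 to 0.41 at 90% epiboly). The 2 stage changes are thus not fully independent. 614 genes rose and 758 fell in both, and 1 gene, *rbm38*, moved in opposite directions. Over all 13276 genes the 2 stage changes correlated with r of 0.768, a description across genes, which are not independent replicates, and the median change was -0.01 in double morphants and 0.02 in control MO embryos. More of the genes that passed in control MO embryos passed in the same direction in double morphants than did not, as the plot of both stage changes shows. The counts depended on single arrays: without sample 2 at 90% epiboly 601 genes rose in double morphants, without sample 3 at 90% epiboly 487 rose and 609 fell, and without sample 3 at shield 513 rose and 607 fell. In control MO embryos 567 rose without sample 2 at 90% epiboly, 507 rose and 637 fell without sample 3 at 90% epiboly, and 516 rose and 655 fell without sample 3 at shield.

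**Figure D1:**
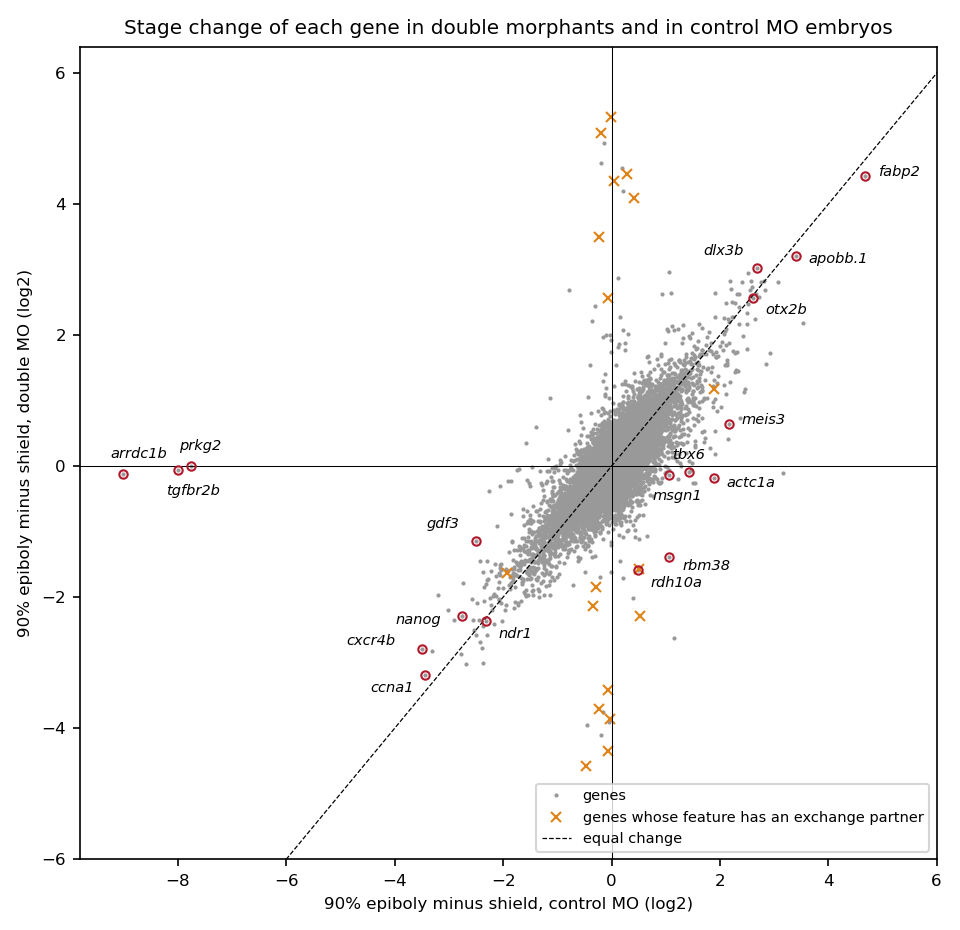
Each point is 1 of 13276 genes, with its log2 difference between 90% epiboly and shield in control MO embryos (x axis) and in double morphants (y axis). Crosses mark genes whose feature has an exchange partner, and circles with a symbol mark some of the genes named in the text. Most genes with a large change in control MO embryos lie near the dashed line of equal change (r of 0.768), *actc1a*, *tbx6* and *msgn1* lie near 0 on the y axis, and most crosses lie near 0 on the x axis.

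How much of the normal stage change went on was read from the genes selected in control MO embryos. Of the 450 genes that rose there by at least 1 (log2), 337 (74.9%) also rose in double morphants, and the median gene had 86.8% of the control change (quartiles 63.3% and 103%). Of the 499 that fell by at least 1, 422 (84.6%) also fell, with a median of 89.2% (quartiles 73.5% and 104%). Control changes selected for their size are on average too large, so a share under 100% is partly set by the selection: the same count made the other way, on 469 genes that rose and 481 that fell in double morphants, gave control MO embryos a median of 88.6% and 92.7%. Under 25% of the control change was left in 27 of the 450 genes that rose and 13 of the 499 that fell. Counts made the other way were no smaller. Of the genes selected in double morphants, 28 of 469 that rose and 26 of 481 that fell had under 25% in control MO embryos. Without features with an exchange partner these were 21 of 461 and 17 of 471. Selected in control MO embryos without the shield samples numbered 1, the medians were 90.8% of 503 genes that rose and 89.4% of 636 that fell. Of these, 26 and 22 genes were under 25%.

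A direct test of the difference between the 2 stage changes passed for 28 genes, 13 with a higher change in double morphants (0.0979% of genes) and 15 with a lower one (0.113%). Of the 28, 15 had an exchange partner, which leaves 6 higher and 7 lower. At an unadjusted p under 0.05, 718 of 45220 features were counted in the higher and 986 in the lower direction. Together that is a smaller share than the 0.05 such a threshold passes where no feature differs. With the replicate number as a block within each stage, the counts were 1353 and 1591. The test compares 2 differences with 3 samples in each group, so a smaller stage change that misses it is given below by its values only.

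Transcripts laid down in the egg are cleared as development goes on. Of 26 measured genes of the list of maternal and pluripotency genes, 11 fell and 2 rose in double morphants and 13 fell and 2 rose in control MO embryos, with a list median of -0.55 in double morphants and -0.68 in control MO embryos. *ccna1*, the cyclin gene whose RNA is laid down in the egg, was at 9.10, 8.34 and 8.16 in double morphants at 90% epiboly, against 10.75, 12.46 and 11.96 at shield. The stages did not overlap, and the fall was 3.19 (standard error 0.39, adjusted p = 0.00024), and control MO embryos gave -3.45 (adjusted p = 0.000138). *h1m*, the linker histone of egg and early embryo, fell to 9.25, 9.10 and 9.21, against 11.07, 11.91 and 12.35 at shield (adjusted p = 8.25e-05). *cth1*, which encodes a zinc finger protein of the egg, fell by 2.01 (adjusted p = 0.0012). *nanog* and *pou5f3*, TFs that help to switch on the zygotic genome, fell by 2.28 and 1.15 (adjusted p = 0.00673 and 0.0034), and in control MO embryos by 2.77 and 1.55 (adjusted p = 0.0019 and 0.000455). *klf2a*, a Krüppel-like TF, went the other way and rose to 11.16, 11.08 and 11.05, against 8.63, 8.14 and 8.63 at shield (adjusted p = 1.99e-05).

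Of 11 germ plasm and germ cell genes, 7 fell in double morphants and 6 in control MO embryos, and none rose in either. *cxcr4b*, the chemokine receptor gene of migrating germ cells, had 10.41, 10.09 and 9.75 in double morphants at 90% epiboly and 12.30, 13.33 and 13.01 at shield, a fall of 2.80 (adjusted p = 3.37e-05). *ddx4* (vasa), the RNA helicase gene of germ cells, fell by 1.22 (adjusted p = 0.00178) and *piwil1*, which acts with small RNAs against transposons, by 1.64 (adjusted p = 0.00252). Of 39 cell cycle genes, 9 fell and 3 rose in double morphants, against 10 that fell and 1 that rose in control MO embryos. *ccne1*, which drives entry into S phase, was at 10.50, 10.71 and 10.48 at 90% epiboly, against 11.77, 12.48 and 12.45 at shield (adjusted p = 0.000276), while *ccne2* gave -0.35 (adjusted p = 0.353), and the mitotic cyclins *ccnb1* and *ccnb2* fell by 0.90 and 1.35 (adjusted p = 0.00193 and 0.00178). The replication helicase gene *mcm6* rose by 0.95 (adjusted p = 0.00406), where control MO embryos gave 0.48 (adjusted p = 0.104).

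Nodal signalling induces mesoderm and endoderm before and at the start of gastrulation. Of 16 genes of the Nodal list, 5 fell in double morphants and 7 in control MO embryos, and none rose. *ndr2*, a Nodal ligand gene, passed in neither (-0.31 in double morphants and -0.16 in control MO embryos, adjusted p = 0.204 and 0.559). *ndr1*, another Nodal ligand gene, fell to 6.90, 6.38 and 6.48 in double morphants, against 8.40, 9.26 and 9.19 at shield (log2 difference -2.37, adjusted p = 0.000274), next to -2.31 in control MO embryos (adjusted p = 0.000283). *mixl1*, the homeobox TF gene downstream of Nodal, had 9.78, 9.46 and 9.58 at 90% epiboly and 11.28, 12.03 and 12.10 at shield, a fall of 2.19 (adjusted p = 0.000216) that was 3.02 in control MO embryos (adjusted p = 2.59e-05). *foxh1*, the partner of the Smads, fell by 0.91 (adjusted p = 0.00643). *gdf3* (Vg1), whose product pairs with the Nodal ligands, stayed higher. It was at 11.81, 11.58 and 11.75 in double morphants at 90% epiboly, against 12.47, 12.92 and 13.15 at shield, and at 8.59, 8.71 and 8.36 in control MO embryos at 90% epiboly, against 10.21, 11.29 and 11.66 at shield. It fell in both, by 1.14 and 2.5, and the difference between the falls of 1.36 did not pass (adjusted p = 0.845).

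Of 38 genes of forebrain, midbrain and hindbrain patterning, 8 rose and 2 fell in double morphants and 7 rose and 2 fell in control MO embryos, with 6 risen in both. *otx2b*, the homeobox TF gene of forebrain and midbrain, was at 11.24, 11.77 and 11.57 in double morphants at 90% epiboly and 10.01, 8.19 and 8.67 at shield, a rise of 2.57 (standard error 0.46, adjusted p = 0.00301) beside 2.62 in control MO embryos (adjusted p = 0.00252). The difference between these 2 rises was -0.04 with a 95% interval of -1.45 to 1.37. *six7*, *fezf2* and *pax6b*, TFs of the eye field and forebrain, rose by 2.81, 2.27 and 2.20 (adjusted p = 0.000382, 6.29e-05 and 0.000469). Their control rises were 2.42, 2.22 and 2.18. In the neural plate list, 8 of 32 genes rose and 2 fell in double morphants and 8 rose and 5 fell in control MO embryos. They included *zic1*, a zinc finger TF of the neural plate, which rose by 2.17 (adjusted p = 0.00106), the Notch ligand gene *dla* by 1.45 (adjusted p = 0.00263) and the repressor gene *her9* by 2.64 (adjusted p = 0.00187).

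Of 29 genes of the neural plate border, neural crest and non-neural ectoderm, 8 rose and 4 fell in double morphants and 8 rose and 3 fell in control MO embryos. *dlx3b*, a homeobox TF gene of the border of the neural plate, was at 11.02, 11.35 and 11.45 at 90% epiboly, against 9.24, 7.83 and 7.68 at shield in double morphants. The groups did not overlap, although shield sample 1 lay above the other 2, and the rise was 3.03 (adjusted p = 0.000438). *tp63*, the TF of epidermal precursors, rose to 9.27, 9.49 and 9.18, against 7.74, 7.09 and 6.81 at shield (adjusted p = 0.000116). *msx2b* and *prdm1a*, TFs of the border region, rose by 1.77 and 1.69 (adjusted p = 0.000354 and 0.012), with 1.67 and 1.64 in control MO embryos. *snai2*, a TF gene of the neural crest, fell by 2.12 (adjusted p = 0.00045). Other Msx genes had smaller changes in double morphants. There *msx1a* and *msx3* gave 0.74 and 0.54 (adjusted p = 0.103 and 0.163). In control MO embryos they rose by 2.37 and 1.71 (adjusted p = 0.000199 and 0.000561), and neither gene passed the test of the difference. Both were above the control level at shield already, by 1.04 and 1.26.

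The yolk syncytial layer feeds the embryo and releases lipoproteins into it. Of its 22 measured genes, 9 rose and 2 fell in double morphants and 8 rose and 2 fell in control MO embryos, 8 having risen in both. *fabp2*, which encodes a fatty acid binding protein of lipid-absorbing cells and is not on the list, was at 10.96, 11.82 and 11.82 in double morphants at 90% epiboly, against 8.47, 6.28 and 6.54 at shield. Every 90% epiboly value exceeded every shield value, and the rise of 4.43 (standard error 0.53, adjusted p = 0.000221) stood beside 4.68 in control MO embryos. *apobb.1*, the gene of an apolipoprotein B, rose to 10.22, 11.01 and 11.10, against 8.30, 7.04 and 7.39 at shield (adjusted p = 0.000105). *serpina1*, *tfa* (transferrin) and *apoa2*, which encode proteins of plasma and lipoproteins, rose by 2.17, 2.01 and 1.75 (adjusted p = 0.000258, 0.00132 and 0.00561). In the enveloping layer list, 2 of 25 genes rose in double morphants, *anxa1b* and *tp63* (named above for epidermal precursors), and 1 fell. Over all genes 7.9% rose and 8.23% fell in double morphants. In control MO embryos 5 genes of the list rose and 1 fell. Among the 5 was *cyt1*, a keratin gene, at 0.85 in control MO embryos (adjusted p = 0.0273) and 0.66 in double morphants (adjusted p = 0.0783).

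**Figure D2:**
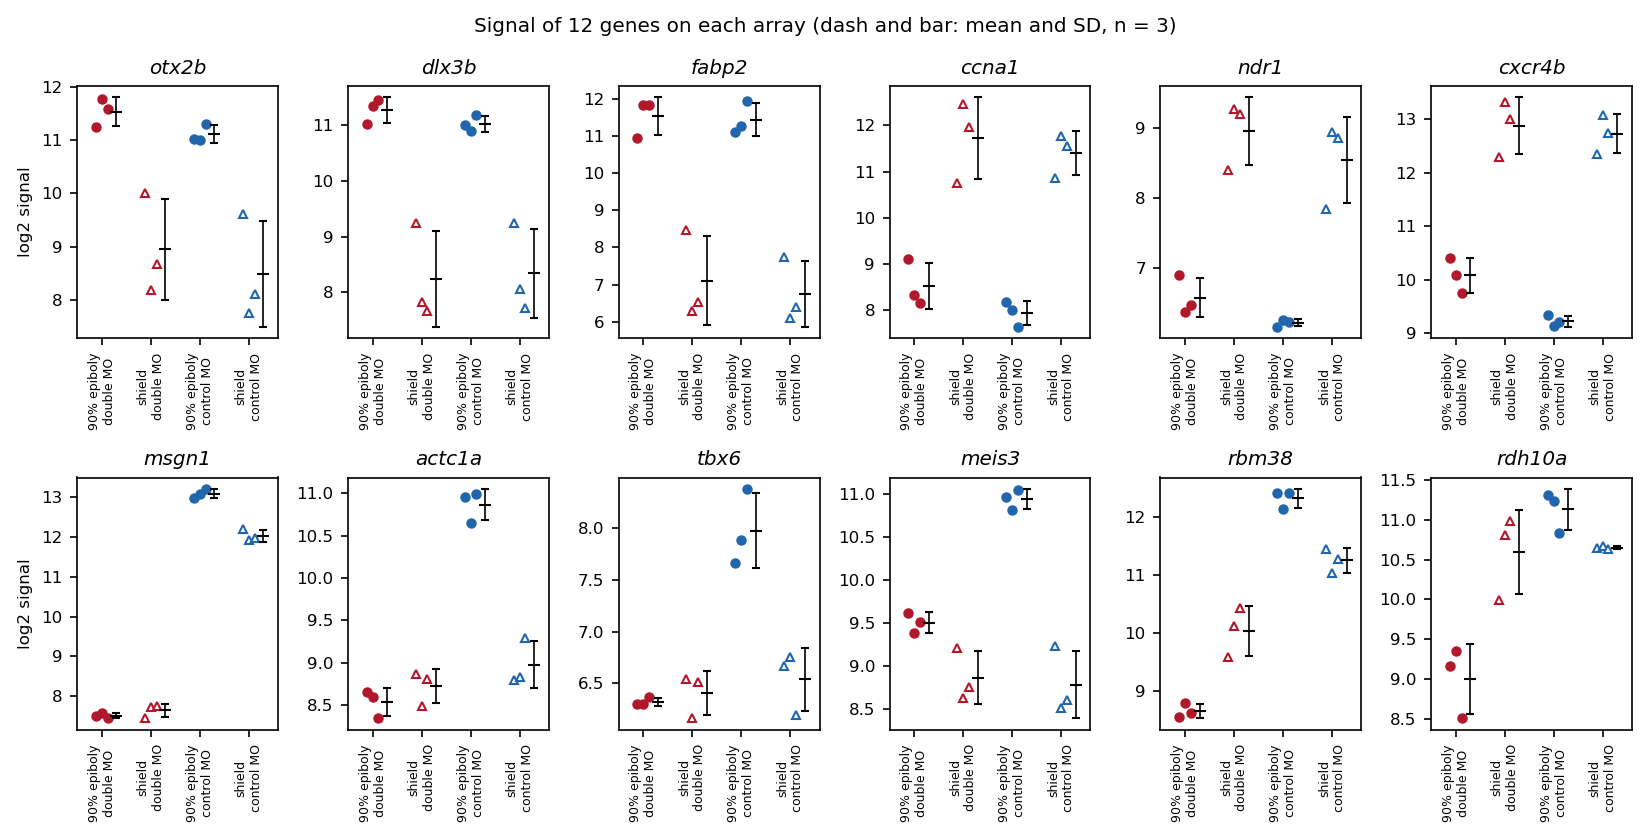
Log2 signal on each array for 12 genes, with the double MO groups in red and the control MO groups in blue, filled circles for 90% epiboly and open triangles for shield. The dash and bar beside each group are its mean and SD (n = 3). The upper 6 genes change between stages in both kinds of embryo, for example *otx2b* by 2.57 in double MO and 2.62 in control MO embryos. In the lower 6 the stage change is lower in double MO than in control MO embryos, for example *actc1a* with -0.19 in double MO and 1.88 in control MO embryos. The control change of *rdh10a* did not pass. For *tbx6* and *meis3* the difference between the stage changes did not pass on the probe drawn.

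Endoderm genes are the subject of the study. Of 19 measured, 7 rose and 5 fell in double morphants, against 4 that rose and 5 that fell in control MO embryos, and these shared 4 rises and 4 falls. The list median was 0.08 in double morphants and -0.26 in control MO embryos, and the difference between the stage changes passed for none of the 19 genes. *sox32*, the TF that specifies endoderm, fell to 10.97, 11.22 and 11.32 in double morphants, against 11.91, 12.01 and 12.54 at shield (log2 difference -0.99, adjusted p = 0.00477), next to -1.01 in control MO embryos. *prdx5*, a peroxiredoxin gene on the endoderm list, was at 9.37, 9.88 and 9.67 at 90% epiboly, against 8.70, 7.46 and 7.44 at shield (adjusted p = 0.00552). *foxa1* and *foxa2*, forkhead TFs of endoderm and axial midline, rose by 1.00 and 1.17 (adjusted p = 0.0139 and 0.0218), and *nkx2.7*, a homeobox TF of pharyngeal endoderm and heart, by 1.16 (adjusted p = 0.00294). The control change of *foxa2* was 0.59 (adjusted p = 0.245), and the difference between the stage changes was 0.58 (adjusted p = 1). *sox17*, which acts below *sox32*, was dim at 6.36, 6.53 and 6.47 in double morphants at 90% epiboly and 6.99, 6.16 and 5.71 at shield, and no change was detectable (adjusted p = 0.751). *vgll4l* and *ism1*, both on the list, fell by 1.29 and 1.30 (adjusted p = 0.00247 and 0.000202). *cxcr4a*, the chemokine receptor gene of endoderm and mesoderm cells and one of the 7 that rose, did so on its brightest probe by 0.62 in double morphants (adjusted p = 0.0288) and 0.57 in control MO embryos (adjusted p = 0.0427), but with its probes averaged it fell by 0.56 in double morphants (adjusted p = 0.0317) and gave -0.32 in control MO embryos (adjusted p = 0.211).

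In the axial midline, the list of notochord and floor plate genes had 4 rises and 1 fall among 16 genes in double morphants and 3 rises and 1 fall in control MO embryos. *shhb* and *shha*, which encode Hedgehog ligands of notochord and floor plate, rose by 1.62 and 0.99 (adjusted p = 0.00276 and 0.0143). The call of *shha* was lost under 2 of the 22 fits tried, averaged probes included, with changes of 0.51 to 1.13. *shha* reached 7.78, 7.57 and 7.65 in double morphants at 90% epiboly, against 6.96, 6.69 and 6.38 at shield, and 8.75, 8.33 and 8.64 in control MO embryos at 90% epiboly, against 7.99, 7.02 and 7.45 at shield. *noto* (floating head), a homeobox TF that keeps notochord precursors from becoming muscle, fell to 10, 10.07 and 10.23 in double morphants, against 11.01, 11.43 and 11.49 at shield (adjusted p = 0.00104). Its control change of -0.44 did not pass (adjusted p = 0.147), nor did the difference (-0.77, adjusted p = 0.991). *col8a1a*, a collagen gene of the notochord, was at -0.44 in double morphants and 0.71 in control MO embryos, and passed in neither (adjusted p = 0.289 and 0.0845).

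Of 64 genes of adhesion, matrix and guidance, 16 rose and 9 fell in double morphants and 19 rose and 7 fell in control MO embryos. *itga6a*, a laminin receptor gene, rose to 9.28, 9.38 and 9.73 in double morphants, against 6.93, 6.62 and 6.41 at shield (log2 difference 2.81, adjusted p = 3.71e-06). *efnb2b*, counted among those that fell, has an exchange partner, and its other probe gave 0.80 (adjusted p = 0.07). A few genes that were below control at shield had a larger rise in double morphants. *cxcl12b*, the chemokine gene that guides Cxcr4-bearing cells, was at 9.78, 9.61 and 9.66 in double morphants at 90% epiboly, against 8.36, 7.30 and 7.24 at shield, and at 10.90, 10.77 and 10.71 in control MO embryos at 90% epiboly, against 10.34, 9.26 and 9.65 at shield. It rose by 2.06 (adjusted p = 0.000741) and 1.05 (adjusted p = 0.0339), and the difference of 1.01 did not pass (adjusted p = 1). *p4ha2*, a collagen hydroxylase gene, and *zic2a*, a zinc finger TF gene of the neural plate, were below control at shield by 1.55 and 1.18 and rose by 0.95 and 1.23 in double morphants (adjusted p = 0.00156 and 0.000861), with 0.14 and 0.30 in control MO embryos (adjusted p = 0.633 and 0.326), and neither difference passed (adjusted p = 0.475 and 0.556). *pcdh18a*, a protocadherin gene at about the control level at shield, rose by 2.09 in double morphants and 1.23 in control MO embryos (adjusted p of the difference = 0.684).

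Several genes of the presomitic mesoderm changed in control MO embryos and had a small or no change in double morphants. Of 20 genes of the paraxial mesoderm, somite clock genes included, 1 rose and 4 fell in double morphants, against 5 that rose and 2 that fell in control MO embryos, and no gene passed in the same direction in both. The list median was -0.14 in double morphants and 0.20 in control MO embryos, and the difference between the stage changes passed for 1 of the 20 genes. *msgn1*, a TF gene of presomitic mesoderm, was at 7.50, 7.58 and 7.45 in double morphants at 90% epiboly and 7.45, 7.72 and 7.75 at shield, and at 12.98, 13.08 and 13.21 in control MO embryos at 90% epiboly and 12.20, 11.93 and 11.97 at shield. It was thus flat and far below control at both stages, with a change of -0.13 in double morphants (95% interval -0.46 to 0.20) and 1.06 in control MO embryos (adjusted p = 0.000713). The difference of -1.18 passed (standard error 0.22, adjusted p = 0.0359), as it did on 4 of its 5 probes, all 5 of which were negative. That call was near the threshold: the adjusted p over the alternatives ran between 0.00547 and 0.143, and with the replicate number as a block it no longer passed (adjusted p = 0.0832, or 0.119 with a block within each stage).

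**Figure D3:**
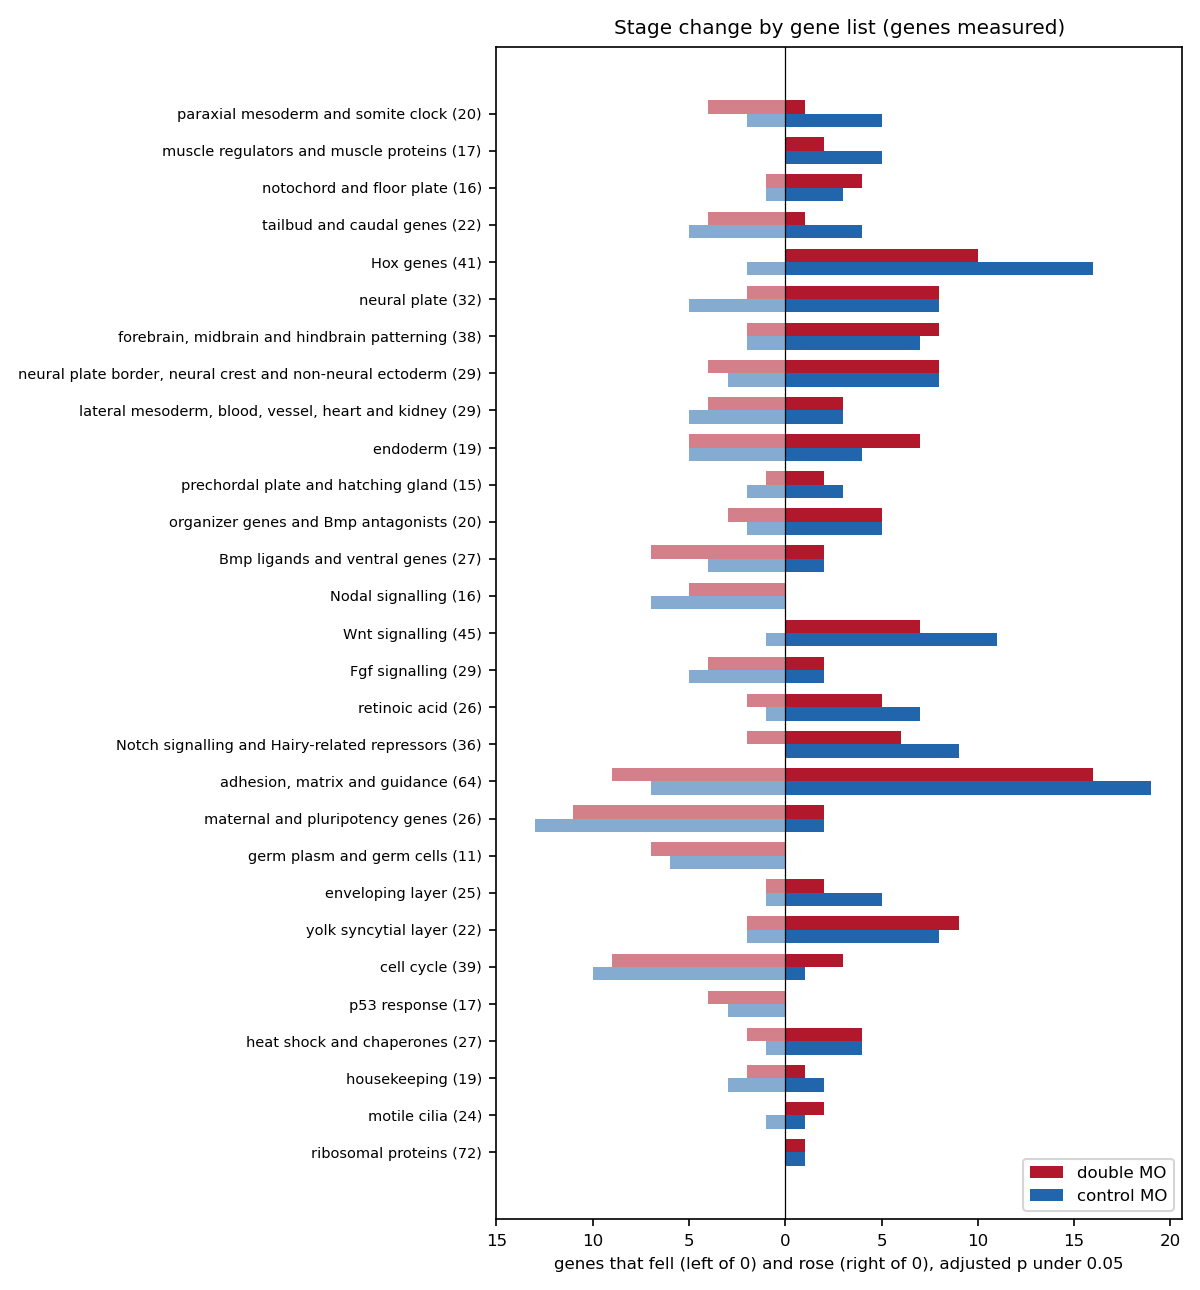
Number of genes of each list that rose (to the right of 0) and fell (to the left, paler) between shield and 90% epiboly, with double MO in red above control MO in blue; the number of genes measured is in parentheses. Paraxial mesoderm has 1 rise in double MO and 5 in control MO embryos, and maternal genes 11 falls in double MO and 13 in control MO embryos.

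2 T-box genes of the same tissue had double morphant changes near 0 as well. *tbx6* (*tbx24* on the array, the gene of the fused somites mutant) was at 6.30, 6.30 and 6.37 in double morphants at 90% epiboly and 6.54, 6.16 and 6.51 at shield, near the dimmest signals of the array, and at 7.66, 7.88 and 8.37 in control MO embryos at 90% epiboly and 6.67, 6.76 and 6.19 at shield. Its change was -0.08 in double morphants (95% interval -0.53 to 0.37) and 1.43 in control MO embryos (adjusted p = 0.000729). The difference of -1.52 missed the threshold (adjusted p = 0.0606), while its other probe passed (-2.76, adjusted p = 3.01e-06). *tbx16l* (*tbx6* on the array) stayed at 8.05, 8.42 and 8.34, against 7.96, 8.27 and 7.95 at shield, and its 0.21 compared with 1.37 in control MO embryos (adjusted p = 0.000729, and for the difference of -1.16 adjusted p = 0.271). Its control means were 11.93 at 90% epiboly and 10.56 at shield, so double morphants were below control at shield already (log2 difference -2.49). The Notch ligand gene deltaD (*dld* on the array, matched by its transcript to the entry now named *dldh* in RefSeq) and the clock gene *her7* were lower than in controls at shield and fell further on their brightest probes, by 0.58 and 0.79 (adjusted p = 0.0334 and 0.0118). In control MO embryos neither passed under any fit tried, with changes of -0.004 to 0.16 for deltaD and -0.46 to -0.28 for *her7*. The difference between the stage changes passed for neither (adjusted p of at least 0.61 and 0.806). The probes of deltaD disagreed, with 0.56 and -0.12 on the other 2, and their average changed by -0.05 (adjusted p = 0.871). *mespaa*, a TF gene of forming somites and early mesoderm, fell by 1.28 in control MO embryos (adjusted p = 0.00197). In double morphants it was at 5.79, 5.51 and 5.62 at 90% epiboly and 5.95, 5.61 and 6.24 at shield, at or near the dimmest signals of the array at both stages. For *meox1*, a TF gene of the somites, the probes disagreed: the brightest gave 0.38 in double morphants (adjusted p = 0.399) and 1.55 in control MO embryos (adjusted p = 0.00219), and the other 2 rose by 1.65 and 1.17 in double morphants (adjusted p = 0.00186 and 0.00995).

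Of 17 genes of the muscle list, 2 rose in double morphants, *mef2d* and *rbm24a*, and 5 in control MO embryos, where *acta1b*, *myf5* and *myod1* joined them. The cardiac actin gene *actc1a*, not on the list, was at 8.66, 8.6 and 8.35 in double morphants at 90% epiboly and 8.87, 8.50 and 8.81 at shield, and at 10.95, 10.65 and 10.99 in control MO embryos at 90% epiboly and 8.80, 8.84 and 9.30 at shield. The control samples at 90% epiboly stood above all 9 others, and the change was -0.19 (95% interval -0.59 to 0.21) in double morphants and 1.88 in control MO embryos (adjusted p = 5.62e-05). The difference of -2.07 passed (adjusted p = 0.0013) on all 4 probes and under every alternative tried (adjusted p up to 0.0108). *acta1b*, a skeletal muscle actin gene, gave -0.27 in double morphants and 0.69 in control MO embryos (adjusted p = 0.312 and 0.0123), and the muscle TF genes *myf5* and *myod1* gave -0.19 and 0.22 in double morphants and 1.22 and 0.69 in control MO embryos (adjusted p = 0.023 and 0.032 in controls). With its 6 probes averaged, the control change of *acta1b* was 0.03 (adjusted p = 0.898). The differences between the stage changes did not pass for any of the 3 (adjusted p = 0.233, 0.878 and 1).

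Some genes that passed the test of the difference fell in double morphants and had a positive change in control MO embryos. *rbm38*, an RNA-binding protein gene, was at 8.55, 8.78 and 8.61 in double morphants at 90% epiboly and 9.57, 10.11 and 10.43 at shield, and at 12.42, 12.13 and 12.41 in control MO embryos at 90% epiboly and 11.44, 11.02 and 11.28 at shield. It fell by 1.39 in double morphants (adjusted p = 0.00101) and rose by 1.07 in control MO embryos (adjusted p = 0.00473), a difference of -2.46 (adjusted p = 0.000774) that its other probe did not reach (-1.02, adjusted p = 0.751). *rdh10a*, the retinol dehydrogenase gene at the first step of retinoic acid synthesis, fell to 9.16, 9.35 and 8.51 in double morphants, against 9.99, 10.81 and 10.99 at shield (log2 difference -1.59, adjusted p = 0.00198). In control MO embryos it was at 11.32, 11.24 and 10.84, against 10.64, 10.68 and 10.64 at shield (0.48, adjusted p = 0.284). The difference passed on both probes (-2.07 and -1.94, adjusted p = 0.0345 and 0.0199), though the first no longer passed with the replicate number as a block (adjusted p = 0.065), and its adjusted p ran up to 0.13 over the alternatives. *tob1a*, an antiproliferative gene with 1 probe, was at 10.45, 10.13 and 10.11 in double morphants at 90% epiboly, against 11.02, 11.50 and 11.51 at shield, and at 11.52, 11.59 and 11.82 in control MO embryos at 90% epiboly, against 11.11, 11.23 and 11.06 at shield. Its changes of -1.11 and 0.51 (adjusted p = 0.00135 and 0.077) differed by -1.62 (adjusted p = 0.00799). Other retinoic acid genes rose in both: *crabp2b* and *dhrs3b*, which bind and reduce retinoids, by 0.92 and 1.37 in double morphants (adjusted p = 0.0053 and 0.017) and by 0.97 and 1.30 in control MO embryos (adjusted p = 0.00361 and 0.021). *cyp26a1*, which encodes a retinoic acid degrading enzyme, rose by 1.56 in double morphants (adjusted p = 0.00748), beside 0.99 in control MO embryos (adjusted p = 0.064). Of the 26 genes of the list, 5 rose and 2 fell in double morphants and 7 rose and 1 fell in control MO embryos.

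Hox genes set position along the body axis, and their early members come on in gastrulation. Of 41 measured, 10 rose in double morphants and none fell, against 16 that rose and 2 that fell in control MO embryos. Of the 16, 8 also rose in double morphants and 13 rose less there, with a median of 0.77 in double morphants and 1.23 in control MO embryos, and none of the differences passed. These 16 were selected on their control rise, which is then on average too large. Over all 41 the median was 0.46 in double morphants and 0.34 in control MO embryos, and the median difference was -0.08. *hoxc3a* was at 7.05, 8.37 and 8.01 in double morphants at 90% epiboly, against 6.64, 6.1 and 5.53 at shield, a rise of 1.72 (adjusted p = 0.00561) beside 2.92 in control MO embryos. *hoxb3a* and *hoxb7a* rose by 1.11 and 1.28 (adjusted p = 0.00609 and 0.0103), beside 2.11 and 2.19. The double morphant call of *hoxb7a* was lost under 2 of the 22 fits tried, averaged probes included, with changes of 0.49 to 1.47. *hoxb10a* rose by 1.57 in double morphants and 1.55 in control MO embryos, with a 95% interval of -0.88 to 0.92 for the difference. *hoxb4a* was at 6.22, 6.50 and 6.13 in double morphants at 90% epiboly and 6.57, 6.19 and 5.71 at shield, where control MO embryos had 7.19, 7.03 and 7.31 at 90% epiboly and 6.07, 6.16 and 5.76 at shield. Its stages overlapped in double morphants and not in controls (0.13, adjusted p = 0.754, beside 1.18, adjusted p = 0.00294; difference -1.05, adjusted p = 0.629). *meis3*, a homeobox gene of the hindbrain whose product works with Hox proteins, rose to 10.97, 10.82 and 11.05 in control MO embryos, against 9.23, 8.51 and 8.61 at shield. In double morphants it was at 9.62, 9.39 and 9.51, against 9.21, 8.63 and 8.76 at shield (0.64, adjusted p = 0.0618), and the difference was -1.52 (adjusted p = 0.0613) on this probe and -1.88 (adjusted p = 0.0394) on the next.

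Of 45 Wnt signalling genes, 7 rose in double morphants and none fell, against 11 that rose and 1 that fell in control MO embryos, and 2 rose in both. The receptor gene *fzd3a* rose by 1.47 in double morphants and 1.46 in control MO embryos (adjusted p = 0.00491 and 0.00477), with a 95% interval of -0.86 to 0.89 for the difference. *fzd10*, another receptor gene, was at 6.84, 7.17 and 7.31 in double morphants at 90% epiboly and 6.91, 7.23 and 7.35 at shield, with a 95% interval of -0.44 to 0.33 for the change. In control MO embryos it rose to 8.46, 8.47 and 8.63, against 7.63, 7.43 and 7.32 at shield (1.06, adjusted p = 0.00174), and the difference did not pass (adjusted p = 0.169). *axin2* and *sp5a*, targets of the pathway, and the ligand gene *wnt8a* gave -0.26, 0.13 and 0.11 in double morphants and 0.87, 1.05 and 0.88 in control MO embryos, where all 3 rose (adjusted p = 0.0155, 0.0188 and 0.0444). These control rises did not pass under 3, 2 and 8 of the 21 fits tried. None of the differences passed (adjusted p = 0.441, 1 and 1). Of 22 tailbud and caudal genes, 1 rose and 4 fell in double morphants and 4 rose and 5 fell in control MO embryos. The homeobox gene *cdx1a* rose by 1.47 (adjusted p = 0.0149) beside 2.29, and *cdx4* was at 1.02 (adjusted p = 0.052) beside 1.5 (adjusted p = 0.00763).

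In the other signalling pathways and mesoderm lists a minority of genes passed in either kind of embryo. Of 29 Fgf genes, 2 rose and 4 fell in double morphants and 2 rose and 5 fell in control MO embryos, with all 4 falls shared. The ligand genes *fgf17* and *fgf3* fell by 1.76 and 1.15 in double morphants (adjusted p = 0.000557 and 0.00119) and by 1.14 and 0.97 in control MO embryos (adjusted p = 0.00765 and 0.0032), and the feedback phosphatase gene *dusp4* fell by 0.90 (adjusted p = 0.0165). Of 36 genes of Notch signalling and its Hairy-related repressors, 6 rose and 2 fell in double morphants and 9 rose in control MO embryos. The receptor genes *notch1a* and *notch2* gave 1.07 and 0.09 in double morphants (adjusted p = 0.00798 and 0.813) and 0.60 and 0.91 in control MO embryos (adjusted p = 0.108 and 0.00533), so a different one of them passed in each, and neither difference passed (adjusted p = 1 and 0.848). Of 27 Bmp and ventral genes, 7 fell and 2 rose in double morphants and 4 fell and 2 rose in control MO embryos. They included *vent*, a homeobox TF gene of the ventral side, which fell by 0.97 in double morphants (adjusted p = 0.00518), and the ligand gene *bmp2b*, which fell by 0.62 (adjusted p = 0.0133). *szl*, counted among those that fell in double morphants, has an exchange partner. Its control means were 9.75 at 90% epiboly and 9.77 at shield.

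Of 20 organizer and Bmp antagonist genes, 5 rose and 3 fell in double morphants and 5 rose and 2 fell in control MO embryos. *fsta* (follistatin), an activin antagonist gene, rose by 1.56 in double morphants (adjusted p = 0.00522) and 2.86 in control MO embryos (adjusted p = 0.000109), and the difference of -1.30 did not pass (adjusted p = 0.988). *lhx1a*, a TF gene of the organizer, fell by 1.5 in double morphants and 2.16 in control MO embryos (adjusted p = 0.00114 and 0.000106). Of 15 genes of the prechordal plate and hatching gland, 2 rose and 1 fell in double morphants and 3 rose and 2 fell in control MO embryos. Of 29 genes of lateral mesoderm and its derivatives, 3 rose and 4 fell in double morphants and 3 rose and 5 fell in control MO embryos. *drl*, a zinc finger gene of lateral mesoderm, fell to 7.33, 7.05 and 7.13 in double morphants, against 8.77, 9.14 and 9.49 at shield (adjusted p = 0.000134), and *gata4*, a TF gene of heart and endoderm, rose by 0.93 (adjusted p = 0.00466). *hand2*, a TF gene of heart and lateral mesoderm, rose to 6.74, 6.81 and 7.34 in control MO embryos, against 6.17, 5.86 and 5.89 at shield (adjusted p = 0.00428), while double morphants had 6.59, 6.55 and 6.64 at 90% epiboly and 6.99, 6.51 and 6.6 at shield. The difference of -1.10 did not pass (adjusted p = 0.299).

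Lists of stress and general function were read beside these. Both stages were of injected embryos, so these stage changes do not bear on what injection itself did. Of 17 p53 response genes none rose, and 4 fell in double morphants and 3 in control MO embryos. *mdm2*, which encodes the p53 ubiquitin ligase, fell by 0.91 in double morphants (adjusted p = 0.00491) and 1.19 in control MO embryos (adjusted p = 0.00079). Of 27 heat shock and chaperone genes, 4 rose in both kinds of embryo, and 2 fell in double morphants and 1 in control MO embryos. They were led by *serpinh1b*, the collagen chaperone gene, which rose by 1.89 in double morphants (adjusted p = 0.00164). Of 19 housekeeping genes, 1 rose and 2 fell in double morphants and 2 rose and 3 fell in control MO embryos, *gapdh* falling by 1.19 and 0.94 (adjusted p = 0.000742 and 0.00305). Of 24 motile cilia genes, 2 rose in double morphants, and 1 rose and 1 fell in control MO embryos. Of 72 ribosomal protein genes, 1 rose in each, with a median of 0.40 in double morphants and 0.30 in control MO embryos.

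The 27 genes that rose by at least 1 in control MO embryos and by under 25% of that in double morphants were sorted by where the MO groups differed more. In 15 the larger difference was at 90% epiboly, among them *actc1a*, *tbx6*, *sox5* and *fzd10*. The selection fixes the direction of that difference: double morphants can only have the lower mean there. *sox5*, a TF gene, was at 6.93, 6.71 and 6.79 in double morphants at 90% epiboly and 7.35, 7.05 and 6.81 at shield, and reached 8.43, 8.35 and 8.58 in control MO embryos, against 7.47, 6.22 and 7.18 at shield (difference -1.76, adjusted p = 0.114, and -1.67, adjusted p = 0.00396, on its other probe). In 12 the larger difference was at shield, where the selection likewise leaves only a higher mean in double morphants. *clu* (clusterin) was at 11.39, 11.52 and 11.05 in double morphants at 90% epiboly and 11.39, 11.38 and 11.02 at shield, and at 11.28, 11.14 and 11.58 in control MO embryos at 90% epiboly and 9.06, 10.44 and 10.06 at shield. *frzb*, a secreted Wnt antagonist gene, was at 12.83, 12.32 and 12.24 in double morphants at 90% epiboly and 12.44, 12.25 and 12.27 at shield, and at 12.73, 12.58 and 12.56 in control MO embryos at 90% epiboly and 11.29, 11.81 and 11.40 at shield. Over the fits tried, its double morphant change ran from -0.04 to 0.63 (adjusted p from 0.0201 to 0.923) and did not pass in 21 of 22. The control change of *frzb* ran from 1.01 to 1.32, so its share depended on the fit. Of the 15 genes, 3 passed the test of the difference (*actc1a*, *msgn1* and *rbm38*), and of the 12 none did.

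**Figure D4:**
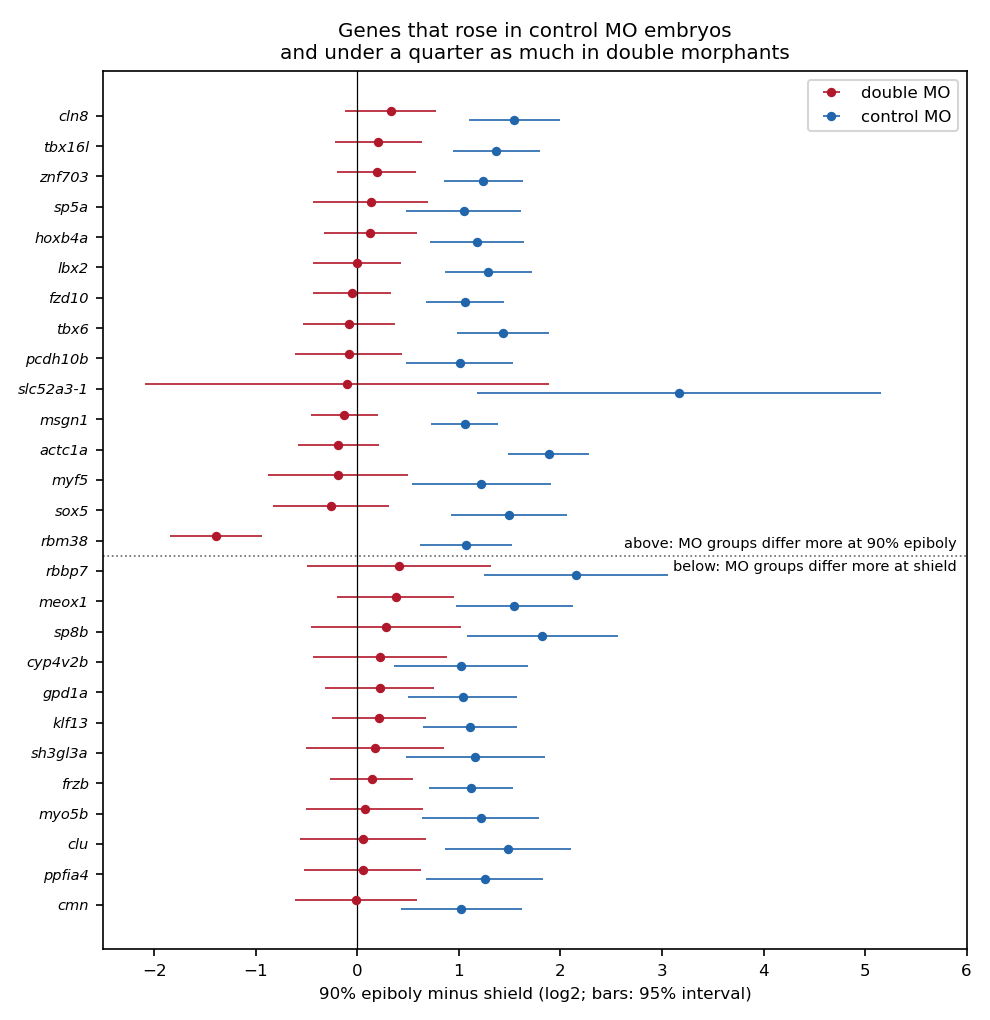
Log2 difference between 90% epiboly and shield with its 95% interval (n = 3 for each group) in double MO (red) and control MO embryos (blue) for the 27 genes that rose by at least 1 in control MO embryos and by under 25% of that in double morphants. They were selected on both changes, so the gap between the colours is a description. The 15 genes above the dotted line differed more between MO groups at 90% epiboly, and the 12 below it at shield.

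Of the 13 genes that fell in control MO embryos and by under 25% of that in double morphants, 10 had means under 6.56, the 40th percentile of features, in all groups but control MO embryos at shield. In 3 of them, *prkg2*, *tgfbr2b* and *arrdc1b*, the control shield samples were far above the rest: *prkg2*, a cGMP-dependent kinase gene, had 5.65, 5.45 and 5.58 in double morphants at 90% epiboly and 5.52, 5.53 and 5.64 at shield, but 5.78, 5.55 and 5.68 in control MO embryos at 90% epiboly and 13.35, 13.51 and 13.42 at shield. A second probe of *tgfbr2b* changed by 0.11 in control MO embryos (adjusted p = 0.766), against -8 on the first.

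The largest folds of the double morphant comparison belonged to features with an exchange partner in 11 of 20 genes. The 3 and 3 values of the stages did not overlap for 18% of genes that were higher and 18.8% that were lower at 90% epiboly. Of the 10 genes that rose most with no overlap between stages, 6 had an exchange partner (*wnt9b*, *si:ch211-285f17.1*, *mapkapk2b*, *impa2*, *txn2* and *gpr34b*), and of the 10 that fell most 5 did (*zgc:173721*, *rab8a*, *szl*, *pknox1.1* and *efnb2b*). *gpr34b* and *szl* were partners of each other. *gpr34b*, a receptor gene, was at 9.32, 9.23 and 9.57 in double morphants at 90% epiboly, against 5.69, 5.49 and 6.44 at shield. *szl* (sizzled), a Bmp feedback antagonist gene, was at 6.68, 5.91 and 5.70 in double morphants at 90% epiboly, against 9.74, 10.25 and 9.87 at shield. Each thus took the other's level in the double morphants at 90% epiboly on all 3 arrays, while *gpr34b* was at 5.68, 5.73 and 5.76 in control MO embryos at 90% epiboly and *szl* at 9.78, 9.74 and 9.72. What underlies the exchange was not tested. 4 of the others rested on uneven arrays, such as *cbfa2t2* with 15.60, 7.71 and 10.37 in double morphants at shield, *htr1aa* with 6.21, 11.18 and 11.07, and *hnrnpa0l* and *tiprl* with 7.54, 8.88 and 12.06 and with 8.50, 6.19 and 5.80 at 90% epiboly. *mest*, at 11.68, 10.27 and 10.71 in double morphants at 90% epiboly against 5.95, 6.06 and 5.83 at shield, had a single probe. The 4 left were *fabp2*, *apobb.1*, *ccna1* and *ndrg1a*, which fell to 9.41, 9.05 and 8.68 in double morphants, against 11.89, 11.98 and 12.35 at shield, and each of these 4 changed in the same direction in control MO embryos by at least 2.68.

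**Figure D5:**
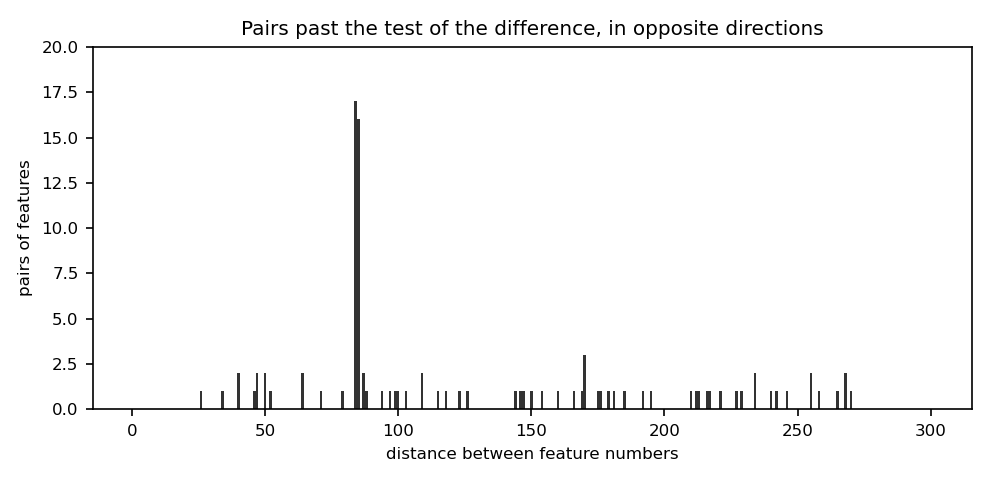
Number of pairs among the 130 features that passed the test of the difference between the stage changes (y axis) whose feature numbers lie a given distance apart (x axis, 1 to 300) and whose differences have opposite signs. Distance 84 had 17 pairs and distance 85 had 16, and no other distance had more than 3.

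Among features, not genes, 130 passed the test of the difference (0.287%), 63 higher (0.139%) and 67 lower (0.148%) in double morphants, and 61 of them had an exchange partner. Those of the 130 that carry a gene name came from 61 genes, of which 50 have several probes, and the rest have no gene name. In 8 of these 50 at least 2 probes had the same sign at an unadjusted p under 0.05: *actc1a*, *fn1b*, *meis3*, *msgn1*, *rbm38*, *rdh10a*, *sox5* and *tbx6*. All 8 had a lower stage change in double morphants. In the other 42 a single probe did. The probe that passed counts as 1 of these. Over all 45220 features, 718 had a higher and 986 a lower stage change in double morphants at an unadjusted p under 0.05. Together these are a smaller share than 0.05. *fn1b*, a fibronectin gene, changed by 0.28 in double morphants and 1.58 in control MO embryos on a probe without a partner (adjusted p of the difference = 0.018), and its brightest probe gave -0.32 and 0.60 (adjusted p of the difference = 1).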

How the data were processed

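Whole-embryo RNA was hybridised to Agilent Zebrafish V3 single-colour arrays. For each of 12 arrays the authors deposited a log2 signal per feature (45220 features). How they corrected background and normalised is not given in the sources used here, and the array medians (7.06 to 7.07) show that the values were aligned. Features were named through the platform annotation, whose symbols can be old, updated where a current symbol could be matched: 26855 features gave 13276 genes, each represented by its feature with the highest mean. The number of arrays limits the precision. The deposited values were fitted with limma 3.58.1 in R 4.3.3 (4 group means, all 12 arrays), with contrasts for the stage change in double morphants, the stage change in control MO embryos and their difference. P-values were adjusted by the Benjamini-Hochberg method over all features, with a threshold of 0.05. The fit was tested on simulated data.

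The 29 gene lists and the genes were chosen with earlier results of these data known. Genes were named by rule: the 10 largest rises and falls in double morphants without overlap between stages, the 10 control rises and falls with most of the change missing in double morphants, the 10 smallest p of the difference in each direction, up to 4 members of each list by the double morphant change and up to 2 by the difference, and the 2 targeted genes. The genes *cdx4*, *cxcl12b*, *cxcr4a*, *foxa2*, *hoxb7a*, *krt4*, *meox1*, *mespaa*, *myod1*, *nanog*, *ndr2*, *pou5f3*, *prdx5*, *sox17*, *sox32*, *tbx16l* and *wnt8a*, and the genes drawn in the plots were chosen after their values were seen. So were the screen for exchange partners, the counts without such features (made with no new fit), and the fits without the shield samples numbered 1 and with a block within each stage. Other fits used other normalisations, filters, weights, a replicate block, the methods' t-test, averaged probes and 1 array fewer. Same-numbered samples did not deviate together across stages (r of -0.15 to 0.08 in double morphants and -0.20 to -0.03 in control MO embryos), so the stages were not treated as paired. No genome, promoter, protein or probe sequence was used here.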

Additional observations from a re-analysis of the deposited data

Results flagged for a closer look

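For 28 genes the stage change differed between double morphants and control MO embryos by the test of the difference in limma (adjusted p under 0.05), which is why they are given here as log2 differences, double morphant change minus control change. 13 had no exchange partner. Among them *rbm38* (-2.46), *actc1a* (-2.07) and *tob1a* (-1.62) passed under all alternatives, while *rdh10a* (-2.07), *ddx11* (-1.73), *hccsa.1* (-1.51), *msgn1* (-1.18) and *stc1* (1.54) lost the call under 10 or more of them, a replicate block over all arrays or within each stage included. *lrrc8db* (2.75) lost it when its probes were averaged (adjusted p = 0.558). *mest* (5.09) passed under all alternatives too and has a single probe. *prkg2* (7.75), *tgfbr2b* (7.93) and *arrdc1b* (8.90) also passed under all alternatives, but were bright in control MO embryos at shield and near the dimmest signals in the other 3 groups.

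The other 15 had an exchange partner. A larger change in double morphants was given by *wnt9b* (5.34), *si:ch211-285f17.1* (5.28), *impa2* (4.31), *mapkapk2b* (4.16), *gpr34b* (3.74), *txn2* (3.67) and *adcy3a* (2.63). A lower one was given by *zgc:173721* (-4.11), *szl* (-3.83), *pknox1.1* (-3.47), *efnb2b* (-3.35), *dnajc3b* (-2.82), *traf3ip1* (-2.08), *bcas3* (-1.79) and *ccn4a* (-1.56). With averaged probes *efnb2b*, *dnajc3b* and *bcas3* lost the call. The filter on dim features left *adcy3a* and *ccn4a* untested. Otherwise the rest of the 15 passed under all alternatives. Passing under all of them therefore does not set a gene apart from those with an exchange partner. What underlies the exchange was not tested.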

How the results depend on the processing

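Counts of genes stayed within 1.5 times those reported under the other normalisations, the filter on dim features, the trend and robust fit and the shield samples numbered 1 left out. The methods' t-test after adjustment left 82 genes higher and 92 lower in double morphants. Array weights gave 1549 genes higher in control MO embryos and 26 with a lower stage change in double morphants than in controls, averaged probes gave 24 genes of this last kind, and leaving out features with an exchange partner gave 6 higher and 7 lower, since fewer features were then counted. For the t-test, the weights and the averaged probes the cause was not tested. Leaving out 1 array at a time gave 487 to 1193 genes higher and 607 to 1225 lower in double morphants, 507 to 1004 higher and 637 to 1199 lower in control MO embryos, and 12 to 18 higher and 11 to 22 lower for the difference. With the replicate number as a block, 1097 genes rose and 1189 fell in double morphants, 1020 rose and 1174 fell in control MO embryos, and the difference passed for 12 higher and 13 lower (12 and 16 with a block within each stage); same-numbered samples of the 2 MO groups correlated at 0.30 to 0.35 at shield and 0.08 to 0.41 at 90% epiboly. Of the single-gene results under alternatives, 13227 kept their side of the threshold, 466 lost it, 174 gained it and 2 reversed, both for *cxcr4a* with its probes averaged (-0.56 in double morphants, -0.32 in control MO embryos). With 3 arrays in each group, the difference between 2 stage changes is the least precise comparison, and a gene missing its threshold is not shown to change equally. Signals near the dimmest of the array give no reliable fold.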
